A study of Homo sapiens with 4 samples.

Results

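The 10 genes described here encode the core machinery that carries a cell from G1 into S phase, and were taken as a named set: 3 D-type cyclins (CCND1, CCND2 and CCND3), cyclin E1 (CCNE1), 3 cyclin-dependent kinases or CDKs (CDK2, CDK4 and CDK6), the CDK inhibitors p27 (CDKN1B) and p15 (CDKN2B), and the retinoblastoma protein (RB1). Each was found by its Ensembl gene identifier, and all 10 were present among the 60658 identifiers of every library. RNA sequencing was done on HT29 and LIM1215, established human colorectal cancer cell lines. Each line gave 1 library from cells with a negative control siRNA and 1 library from cells with an siRNA against TMEM161A, a gene for a transmembrane protein that the study relates to tumour proliferation. The 4 groups are thus HT29 control, HT29 knockdown, LIM1215 control and LIM1215 knockdown, the knockdown titles carry the siRNA name si2, and the labels give no time after transfection and no siRNA sequence. With 1 library per group and 1 siRNA against the target, no test within a line was possible, and the statements below compare single libraries unless they name the 1 fit that takes the lines as repeats.

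D-type cyclins accumulate in response to growth signals and activate CDK4 and CDK6, which begin the phosphorylation of the retinoblastoma protein. Cyclin E with CDK2 completes it, which releases E2F transcription factors to switch on genes of DNA replication, cyclin E among them. Proteins of the INK4 family, such as p15 and p16, block CDK4 and CDK6, while p21 and p27 bind cyclin and CDK complexes and inhibit CDK2. In colorectal cancer CCND1 is known as a gene that responds to Wnt and growth factor signals.

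Levels are given as FPKM, fragments per kilobase of gene scaled to the mapped fragments of the library, so that genes of different length can be set side by side. Differences are given as log2 ratios after 1 was added to each FPKM, which understates changes of genes at low FPKM, or as the plain ratio of FPKM with a 95% counting interval (exact Clopper-Pearson, from fragments estimated at the depth of each library). These intervals cover counting error only and say nothing of the variation between cultures. By the steps between low values, 1 FPKM corresponded to about 18.12 to 21.54 fragments per kilobase in the 4 libraries. In bulk RNA, a different share of cells that express a gene and a different amount of RNA per cell cannot be told apart. As a check of the labels, TMEM161A in HT29 stood at 10.9% of its control level (counting interval from 9.40% up to 12.6%) and at 19.5% in LIM1215 (17.2% to 22.0%). Of 8 colonic epithelium markers, all were at an FPKM of at least 1 in LIM1215 but 5 in HT29, where KRT20, VIL1 and LGALS4 lay between 0 and 0.815. Of 8 markers of leukocytes, fibroblasts and endothelium, PTPRC and CD3E were listed at 0 in every library, and CD68 and COL1A1 alone exceeded an FPKM of 1, with CD68 at 6.22 and 9.82 in HT29 and 58.1 and 72.2 in LIM1215, control first, and COL1A1 at 17.6 and 15.95 in HT29 and 4.83 and 8.56 in LIM1215. The summed FPKM of the colonic markers was 2428 and 2690 in HT29 and 7433 and 9180 in LIM1215, and that of the other markers 24.1 and 26.2, and 63.6 and 81.6. The part of these shifts in the results was not tested.

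Genes whose FPKM averaged at least 1 across the libraries numbered 14803, and their median log2 ratios were 0.04 (HT29) and 0.02 (LIM1215). All 10 genes of the set passed this filter, CCND2 through its LIM1215 level. The members' medians were 0.07 and 0.14, the first including the near absent CCND2. In HT29, 2 of the 10 (CCND3 and CDKN1B) were at least 1.5-fold higher in the knockdown library, where 7.87% of all genes were, and 0 were at least 1.5-fold lower, where 6.91% of all genes were. In LIM1215, 2 of the 10 (CCND2 and CCND3) were at least 1.5-fold higher, against 6.63% of all genes, and 0 were as much lower, against 6.18%. At 2-fold, CCND3 in LIM1215 was the 1 call among the 10. The share of all genes at least 2-fold higher was 1.85% in HT29 and 1.68% in LIM1215, and the share at least 2-fold lower was 1.95% and 1.78%. In HT29 those were 274 genes higher and 288 lower, or 267 and 441 with every library set to 1 common sum without mitochondrial genes. CCND3 was the 1 gene of the set at least 1.5-fold higher in both lines, as were 1.88% of all genes, and 0 of the 10 were as much lower in both, as were 2.14%. The fit across both lines, added after the values were seen, modelled log2(FPKM + 1) of all genes compared on siRNA with cell line as a block (limma, Benjamini-Hochberg adjustment), with 1 residual degree of freedom per gene. A further 6.06 prior degrees of freedom came from the variance shared across genes. The residual is the difference in response between the lines. The SE and p therefore cannot separate variation between cultures from a difference between lines. CCND3 alone of the 10 genes passed an adjusted p of 0.05, as did 0.858% of all genes higher and 1.09% lower. Its mean log2 ratio was 1.07 ± 0.16 (SE, limma adjusted p = 0.0298), with an adjusted p of 0.0613 for a pseudocount of 0.1 and 0.0406 for 5. CDKN1B (0.71 ± 0.13, limma adjusted p = 0.0521) and CCND1 (0.48 ± 0.10, adjusted p = 0.0631) did not pass. The other 7 had limma adjusted p between 0.326 and 0.994, which does not show that they did not differ. Among them was CCND2 (mean log2 ratio 0.43, limma adjusted p = 0.378), whose mean takes in HT29, where it was near absent.

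Apart from CCND2, 5 genes were higher in both lines (CCND1, CCND3, CDK4, CDK6 and CDKN1B), 2 were lower in both (CDK2 and RB1) and 2 went opposite ways (CCNE1 and CDKN2B). Of these directions, that of CDK6 in HT29 turned under 1 other scaling and that of CDKN2B in HT29 under 2. Counting intervals included a ratio of 1 for CDK6 in LIM1215, CDKN2B in HT29, and CCNE1 and RB1 in both lines. Among all genes compared, 53.9% were higher in HT29 and 53.1% in LIM1215, with 44.4% and 46.4% lower. The shares of all genes higher or lower in both lines at any size were not computed, so the counts by direction are a description only.

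**Figure D1:**
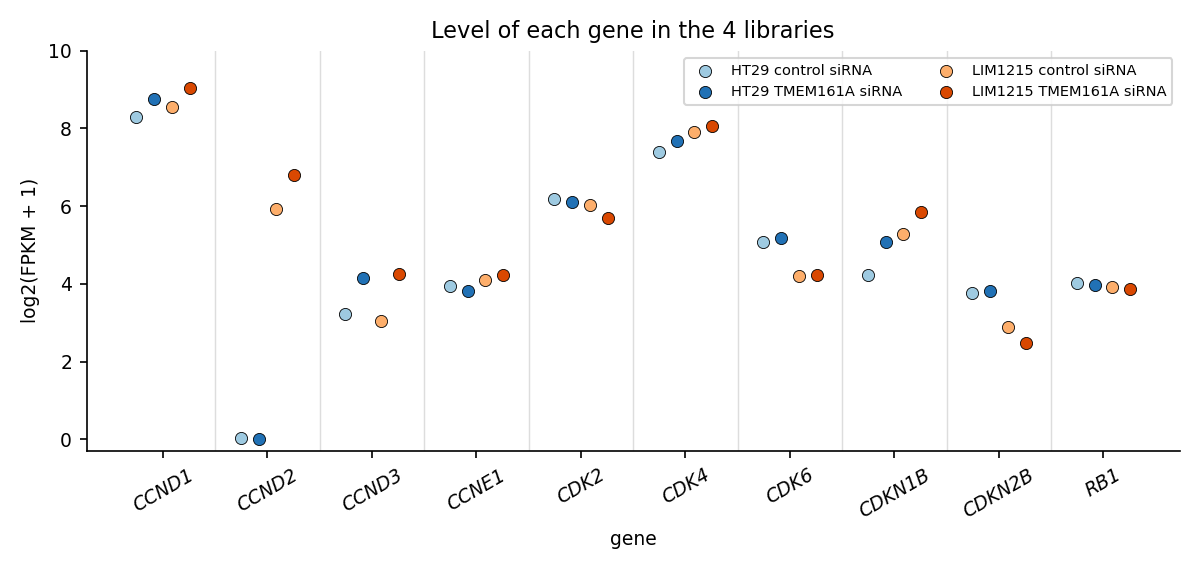
Level of the 10 genes, as log2(FPKM + 1), in the 4 libraries; each point is 1 library. CCND1 and CDK4 lie highest in every library, CCND2 is near 0 in both HT29 libraries and high in both LIM1215 libraries, and the CCND3 and CDKN1B points lie higher in the knockdown than in the control library of each line.

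The upstream sequence is shown for CCND3 and CDKN1B, the members with the highest knockdown ratios among those measured in both lines, for CDK4, the member whose window held a searched motif, and for E2F1, a gene of the pathway that was lower in both knockdown libraries. Each run is the 250 bases before a start site in RefSeq (GRCh38.p14) that matches the start of the GENCODE canonical transcript. Of the 10 members, 7 had a window, but that of RB1 lay at another start than its canonical one, so the region before that start was not searched. CCND1, CCND2 and CDK2 had no entry. Windows were searched on both strands for the E2F words TTTCCCGC, TTTCGCGC, TTTGCCGC and TTTGGCGC, the cAMP response element TGACGTCA and the E-box CACGTG, the word that MYC dimers bind. No 2 of these matches overlapped in the sequences shown. Capitals mark the matches.
CCND3, chr6:41941809-41942058, minus strand: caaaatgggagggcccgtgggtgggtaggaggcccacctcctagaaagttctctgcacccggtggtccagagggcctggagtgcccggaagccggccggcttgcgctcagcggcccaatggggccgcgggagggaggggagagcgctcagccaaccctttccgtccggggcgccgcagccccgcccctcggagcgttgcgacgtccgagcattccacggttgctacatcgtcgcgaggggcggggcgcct
CDKN1B, chr12:12717118-12717367, plus strand: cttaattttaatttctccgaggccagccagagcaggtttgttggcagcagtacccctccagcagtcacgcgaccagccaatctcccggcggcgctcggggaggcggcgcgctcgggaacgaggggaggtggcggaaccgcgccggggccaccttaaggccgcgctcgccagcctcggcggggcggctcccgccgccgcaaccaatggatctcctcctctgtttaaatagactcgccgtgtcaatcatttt
CDK4, chr12:57752311-57752560, minus strand: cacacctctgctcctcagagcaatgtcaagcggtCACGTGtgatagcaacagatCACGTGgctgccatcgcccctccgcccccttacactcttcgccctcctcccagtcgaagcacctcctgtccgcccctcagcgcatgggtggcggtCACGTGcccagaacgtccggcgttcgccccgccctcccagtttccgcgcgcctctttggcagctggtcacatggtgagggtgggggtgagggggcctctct
E2F1, chr20:33686386-33686635, minus strand: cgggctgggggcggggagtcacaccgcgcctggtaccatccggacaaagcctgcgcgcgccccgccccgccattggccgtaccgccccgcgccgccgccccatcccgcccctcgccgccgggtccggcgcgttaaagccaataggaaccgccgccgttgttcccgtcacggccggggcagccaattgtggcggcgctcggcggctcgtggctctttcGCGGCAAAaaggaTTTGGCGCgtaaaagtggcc

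Among all 35116 windows of this length, 2.79% held an E2F word, 1.65% the cAMP response element and 6.34% the E-box. Among the 7 members with a window, 0 held an E2F word, 0 the response element and 1, CDK4, the E-box, which it held 3 times, 216, 196 and 101 bases before its start site, counted to the first base of the word. The CCND3 and CDKN1B windows held none of the searched words. E2F1 held 2 E2F words, at 33 and 20 bases before its start. Among the E2F target genes described further on, 8 of the 17 with a window held an E2F word. The shares over all windows are per window, while the counts of members and target genes are per gene. A gene can have more than 1 window, and the 7 members had 10, so the units differ. These counts describe letters in a window, not binding.

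The D-type cyclins were considered first. CCND1 (ENSG00000110092, cyclin D1, chromosome 11, 69641156 to 69654474, plus strand) was the most abundant gene of the set in every library. HT29 had 313 FPKM with control siRNA and 433 with the knockdown, and LIM1215 had 376 and 528. Both knockdown libraries lay above both controls. How many of all genes separate the 4 libraries in such a way, by siRNA or by line, was not counted. The ratio of knockdown to control was 1.38 in HT29 (counting interval from 1.36 up to 1.40) and 1.40 in LIM1215 (1.38 to 1.43). The log2 ratios, 0.47 and 0.49, exceeded those of 87.8% and 90.3% of all genes compared, short of the 1.5-fold mark. LTO1, which overlaps CCND1 on the opposite strand, had an FPKM between 13.1 and 14.5 in all libraries.

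CCND3 (ENSG00000112576, cyclin D3, chromosome 6, 41934934 to 42050357, minus strand) had the largest ratio of the set. Its level went from 8.28 FPKM (control) to 16.8 (knockdown) in HT29, and LIM1215 gave 7.32 and 18.2. The lines thus had similar control levels and similar knockdown levels. The 2 controls and the 2 knockdowns did not overlap, an order whose share among all genes was not counted. The ratio was 2.02 in HT29 (counting interval from 1.77 up to 2.32) and 2.48 in LIM1215 (2.14 to 2.89). The log2 ratios of 0.94 and 1.21 exceeded those of 97.7% and 99.0% of all genes compared. The 2-fold call depended on the pseudocount, as the log2 ratio was 1.01 in HT29 with 0.1 and 0.91 in LIM1215 with 5.

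CCND2 (ENSG00000118971, cyclin D2, chromosome 12, 4269771 to 4305353, plus strand) differed most between the lines. In HT29 the control was listed at 0.0150 FPKM, about 2 fragments, and the knockdown at 0, so no ratio is given for HT29. LIM1215 had 60.04 FPKM with control siRNA and 110.9 with the knockdown. The ratio was 1.85 (counting interval 1.79 to 1.90) and the log2 ratio 0.87, above 97.7% of all genes compared in LIM1215. CCND2-AS1, on the opposite strand, was listed at 0 in all libraries.

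The makeup of the D-type cyclins therefore differed between the lines more than between siRNAs. Their summed FPKM was 322 (control) and 450 (knockdown) in HT29, a ratio of 1.40, while LIM1215 had 444 and 657, a ratio of 1.48. CCND1 held 97.4% and 96.3% of that sum in the control and knockdown libraries of HT29, but 84.8% and 80.4% in those of LIM1215. CCND2 made up 13.5% and 16.9% in the LIM1215 control and knockdown. The share of CCND3 was small throughout, at 2.57% and 3.72% in HT29 and 1.65% and 2.77% in LIM1215, control first. CCND3 thus had the largest ratio and, except against CCND2 in HT29, the lowest level of the D-type cyclins.

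**Figure D2:**
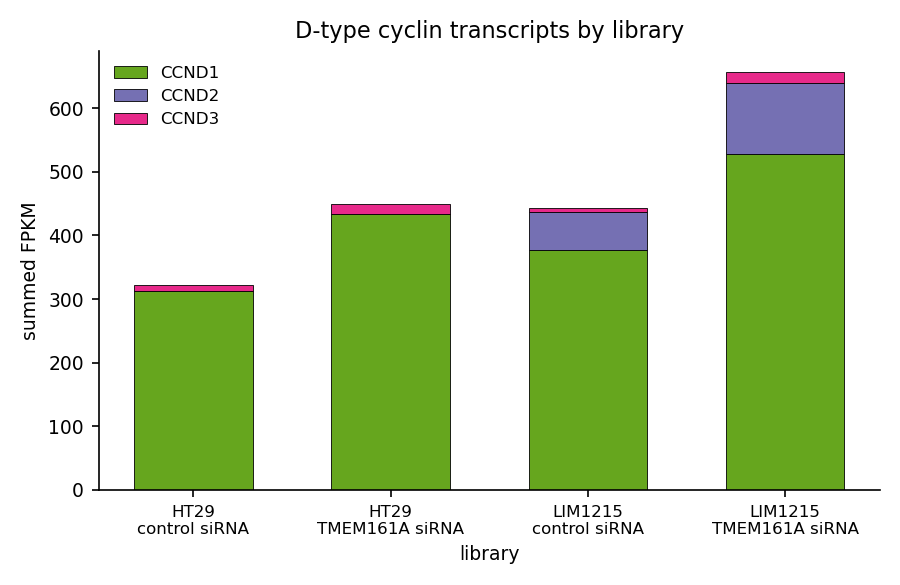
FPKM of CCND1, CCND2 and CCND3, stacked to their sum, in each of the 4 libraries (1 library per bar). The sum is higher in the knockdown than in the control library of each line (450 against 322 in HT29, 657 against 444 in LIM1215), and the CCND2 segment is visible in LIM1215 only.

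CCNE1 (ENSG00000105173, cyclin E1, chromosome 19, 29811991 to 29824312, plus strand) differed little. HT29 had 14.4 FPKM with control siRNA and 12.98 with the knockdown, and LIM1215 had 16.2 and 17.8. The ratios, 0.903 in HT29 (counting interval from 0.798 up to 1.02) and 1.10 in LIM1215 (0.975 to 1.24), each had an interval that included 1. CCNE2, which encodes the related cyclin E2 and was listed with the other genes of the pathway, was lower in both knockdown libraries. It stood at 7.22 FPKM (control) and 3.09 (knockdown) in HT29, and LIM1215 gave 8.25 and 3.64, with log2 ratios of −1.01 and −0.99. The FPKM of CCNE1 was 1.99 times that of CCNE2 in the HT29 control and 4.19 times in the knockdown, and 1.96 and 4.88 times in LIM1215. CCNA2, for cyclin A2, had log2 ratios of −0.54 and −0.62.

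Among the kinases, CDK4 (ENSG00000135446, chromosome 12, 57747727 to 57756013, minus strand), a partner of the D-type cyclins, was the most abundant. With control siRNA HT29 had 168 FPKM and with the knockdown 203, while LIM1215 had 239.6 and 265. The ratio was 1.21 in HT29 (counting interval from 1.17 up to 1.25) and 1.11 in LIM1215 (1.07 to 1.14), with log2 ratios of 0.27 and 0.14. All 4 values were ordered by line first, with both HT29 libraries under both LIM1215 libraries. TSPAN31, which overlaps CDK4 on the opposite strand, stood at 9.50 and 15.2 FPKM in HT29 and at 11.5 and 18.7 in LIM1215, control first. Whether counting used the strand was not given in the sources used here.

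CDK6 (ENSG00000105810, chromosome 7, 92604921 to 92836573, minus strand), the other partner of the D-type cyclins, was nearly level between siRNAs. HT29 gave 32.8 (control) and 35.04 FPKM (knockdown), and LIM1215 gave 17.3 and 17.8. The ratio was 1.067 in HT29 (counting interval from 1.035 up to 1.10) and 1.032 in LIM1215 (0.987 to 1.08, which includes 1). The log2 ratios were 0.09 and 0.04, and the HT29 value turned to −0.0175 with every library set to 1 common sum without mitochondrial genes. The mitochondrial share of FPKM was 15.7% (control) and 13.9% (knockdown) in HT29, with 16.4% and 14.7% in LIM1215, and its part in these values was not tested beyond that rescaling. CDK4 had 5.12 and 5.79 times the FPKM of CDK6 in HT29, and 13.9 and 14.8 times in LIM1215, control first.

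CDK2 (ENSG00000123374, chromosome 12, 55966781 to 55972789, plus strand), the partner of cyclins E and A, was lower in both knockdown libraries. HT29 went from 71.7 FPKM with control siRNA to 67.9, and LIM1215 from 64.9 to 50.9. The ratio was 0.948 in HT29 (counting interval from 0.901 up to 0.997) and 0.785 in LIM1215 (0.740 to 0.832). The HT29 knockdown library lay above the LIM1215 control, so the siRNA groups overlapped across lines. PMEL, on the opposite strand, had an FPKM between 1.48 and 3.71.

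Of the inhibitors, CDKN1B (ENSG00000111276, p27, chromosome 12, 12685498 to 12722369, plus strand) was higher in both knockdown libraries. HT29 went from 17.8 FPKM with control siRNA to 33.0, and LIM1215 from 38.2 to 57.2. The LIM1215 control lay above the HT29 knockdown, so the difference between siRNAs was seen within each line and not across them. The ratio was 1.86 in HT29 (counting interval from 1.71 up to 2.02) and 1.498 in LIM1215 (1.41 to 1.60). The log2 ratio of 0.86 in HT29 exceeded that of 97.0% of genes. The 0.57 in LIM1215 exceeded that of 93.0% and fell just short of the 1.5-fold mark of 0.585. GPR19, overlapping on the opposite strand, was at an FPKM of at most 1.26.

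CDKN2B (ENSG00000147883, p15, chromosome 9, 22002903 to 22009305, minus strand) stood in HT29 at 12.7 FPKM with control siRNA and 13.1 with the knockdown, and in LIM1215 at 6.46 and 4.55. Both HT29 libraries lay above both LIM1215 libraries. The ratio was 1.04 in HT29 (counting interval from 0.949 up to 1.13, which includes 1) and 0.704 in LIM1215 (0.610 to 0.815). Its log2 ratios were 0.05 and −0.43, and the HT29 value was −0.0276 with FPKM rescaled to a common sum and −0.0575 when mitochondrial genes were also left out.

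RB1 (ENSG00000139687, the retinoblastoma protein, chromosome 13, 48303744 to 48599436, plus strand), the substrate of these kinases, lay in a narrow range. HT29 had 15.3 FPKM with control siRNA and 14.6 with the knockdown, and LIM1215 had 14.3 and 13.7. The ratio was 0.951 in HT29 (counting interval from 0.885 up to 1.02) and 0.959 in LIM1215 (0.885 to 1.04), and both intervals include 1. The other pocket proteins, which share its E2F-binding fold, were listed apart. RBL1 (p107) had log2 ratios of −0.66 and −0.11 and RBL2 (p130) of −0.61 and −0.32, in HT29 and LIM1215.

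**Figure D3:**
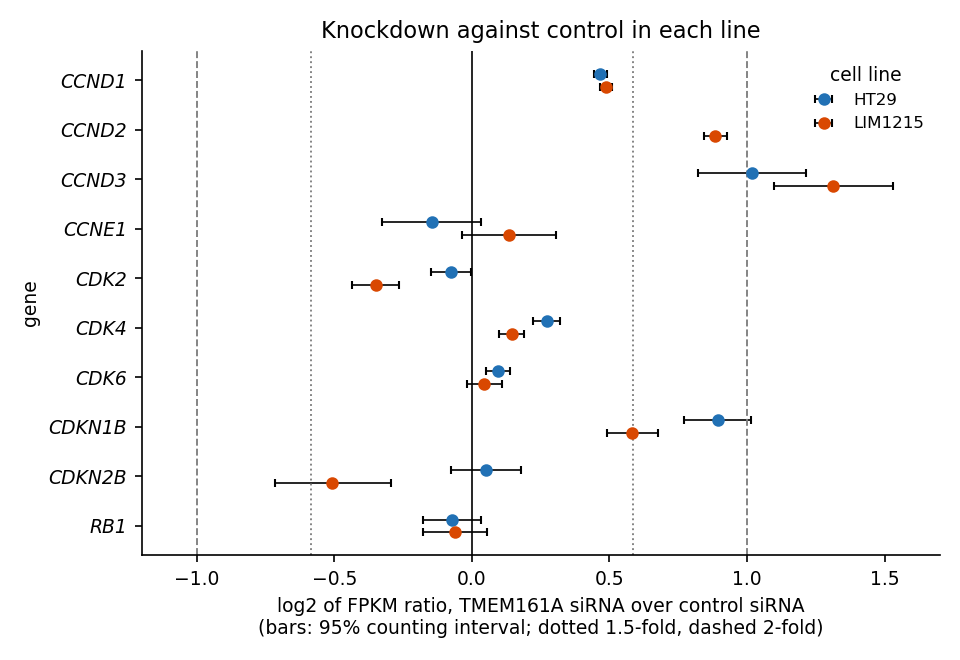
Log2 of the plain FPKM ratio, knockdown over control, for each of the 10 genes in HT29 (blue) and LIM1215 (orange), with 95% counting intervals as bars, which do not include variation between cultures; CCND2 is drawn for LIM1215 alone. CCND3 lies farthest right in both lines (2.02-fold and 2.48-fold), and the intervals of CCNE1 and RB1 cross 0 in both.

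The control libraries were compared to order the lines. At 2-fold, 2 of the 10 genes were higher in the LIM1215 control, CCND2 and CDKN1B, where 12.0% of all genes were, and 0 were lower, where 7.42% were. CCND2 passed the filter through its LIM1215 level alone, so it could enter this count in that direction only. CCND2 had 4015 times the FPKM of the HT29 control, with a counting interval of 1112 to 33180 because the HT29 value rests on about 2 fragments. CDKN1B was 2.15-fold higher in LIM1215 (counting interval 1.97 to 2.34). Its log2 ratio of 1.06 fell under the 2-fold mark with a pseudocount of 5 (0.92), FPKM rescaled to a common sum (0.89, or 0.91 without mitochondrial genes) and upper quartile scaling (0.91).

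CDK6 stood in the LIM1215 control at 0.526 times its HT29 level (counting interval 0.506 to 0.548) and CDKN2B at 0.510 times (0.454 to 0.572). Their log2 ratios of −0.89 and −0.87 passed the 2-fold mark under the same scalings, CDK6 with −1.07, −1.06 and −1.04 and CDKN2B with −1.05, −1.06 and −1.01. CDK4 was 1.43-fold higher in the LIM1215 control (1.38 to 1.48) and CCND1 1.201-fold (1.18 to 1.22). These depended on the scaling, as the log2 ratio of CDK4, 0.51, was 0.33 to 0.46 and that of CCND1, 0.26, was 0.08 to 0.21 under the 4 scalings tried. The ratios of CCND3 (0.885, 0.746 to 1.05), CCNE1 (1.13, 0.998 to 1.28) and RB1 (0.930, 0.862 to 1.01) had intervals that included 1, and CDK2 was at 0.906 (0.858 to 0.956). With FPKM rescaled to a common sum, the log2 ratios went from −0.16 to −0.32 for CCND3, from 0.16 to −0.0078 for CCNE1, from −0.10 to −0.27 for RB1 and from −0.14 to −0.32 for CDK2. In order of level, the HT29 control had CCND1 first, then CDK4, CDK2 and CDK6, with CDKN1B, RB1, CCNE1 and CDKN2B close together between 12.7 and 17.8. In the LIM1215 control the order was CCND1, CDK4, CDK2, CCND2 and CDKN1B, then CDK6, CCNE1 and RB1 between 14.3 and 17.3, and CCND3 and CDKN2B. CCND3 and CCND2 came last in HT29. Without replicates, whether neighbours in these orders differ beyond the spread between cultures cannot be told.

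The other genes of the pathway were then taken from lists by role, 55 genes in all, each of which passed the filter. In HT29, 13 were higher and 42 lower, and in LIM1215, 10 were higher and 45 lower, with 39 lower in both lines. Among all genes compared, 44.4% were lower in HT29 and 46.4% in LIM1215. The share of all genes lower in both lines at any size was not computed, so the 39 has no like share beside it. At 1.5-fold, 10 of the 55 were lower in both lines, among them E2F1, CCNE2, FBXO5, MCM3, CDC6, ORC1, RRM2, CDC45 and GINS2, where 2.14% of all genes were. Higher in both were 2, CDKN1A and E2F5, where 1.88% of all genes were. In the limma fit with line as a block, CDKN1A (1.22 ± 0.11, adjusted p = 0.00505) and CDC6 (−1.46 ± 0.12, adjusted p = 0.00365) passed and CCNE2 did not (−0.9996 ± 0.19, adjusted p = 0.0533).

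E2F target genes, here 20 genes mostly of DNA replication and nucleotide supply, with CHEK1 and MYBL2 also listed, were lower throughout, 20 of 20 in each line. The medians of the list were −0.60 (HT29) and −0.55 (LIM1215), and 11 and 8 of its genes were at least 1.5-fold lower, where 6.91% and 6.18% of all genes were. This list, like the others, was chosen with earlier results of these data known, so its uniform direction is a description and not independent support. CDC6, which loads the replicative helicase, went in HT29 from 87.5 to 32.1 FPKM and in LIM1215 from 79.3 to 27.5 (log2 ratios −1.42 and −1.49). CDC45 and GINS2, parts of the active helicase, had log2 ratios of −0.94 and −0.93 in HT29 and −1.06 and −0.98 in LIM1215. ORC1, of the origin recognition complex, had −1.06 and −0.84, the helicase subunit MCM3 −0.83 and −0.78, and RRM2, of ribonucleotide reductase, −0.68 and −0.68.

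The E2F and DP factors themselves were divided. Of 10, 5 were lower in HT29 and 6 in LIM1215, with medians of −0.01 and −0.06. E2F1, an activator, went in HT29 from 17.3 to 11.2 FPKM and in LIM1215 from 17.5 to 10.3 (log2 ratios −0.59 and −0.71). E2F5, a repressor that binds pocket proteins, stood at 7.59 and 12.3 FPKM in HT29, control first, and at 19.4 and 33.6 in LIM1215 (0.63 and 0.76).

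The other CDK inhibitors went both ways. CDKN1A, for p21 and a target of p53, went in HT29 from 189.9 to 414 FPKM and in LIM1215 from 206 to 518 (log2 ratios 1.12 and 1.33). Its FPKM was 10.7 times that of CDKN1B in the HT29 control and 12.5 times in the knockdown, and 5.40 and 9.05 times in LIM1215. CDKN2A, whose locus next to CDKN2B encodes p16 and ARF, stood at 43.3 and 35.4 FPKM in HT29, control first, and at 10.2 and 5.53 in LIM1215 (−0.28 and −0.78). CDKN2C had log2 ratios of −0.62 and −0.47 and rested on an estimated 33.2 to 59.1 fragments, and CDKN2D had −0.33 and −0.39. The INK4 inhibitor genes other than CDKN2B, 3 in all, were thus lower in both lines, while CDKN1A and CDKN1B were higher in both. CDKN1C, for p57, was at a low level and went both ways, with log2 ratios of 0.32 and −0.06.

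In the CDK-activating kinase, which phosphorylates CDK2, CDK4 and CDK6, CCNH (cyclin H) had log2 ratios of −0.57 and −1.09, MNAT1 of −0.30 and −0.36, and CDK7 of 0.55 in HT29 and −0.22 in LIM1215. Among 13 genes of G1 regulator turnover and phosphatases, 8 were lower in each line, with medians of −0.06 and −0.06. SKP2, the ubiquitin ligase subunit that marks p27 for degradation, went in HT29 from 26.8 to 18.8 FPKM and in LIM1215 from 34.6 to 23.6 (−0.49 and −0.53). AMBRA1, an adaptor in the degradation of D-type cyclins, had log2 ratios of 0.44 and 0.44, and FBXO31, linked to cyclin D1 degradation, of 0.40 and 0.60. FBXO4, another F-box gene of this list, went the other way, with −0.56 and −0.30. FBXO5, an inhibitor of the anaphase-promoting complex, had −0.71 and −0.65.

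**Figure D4:**
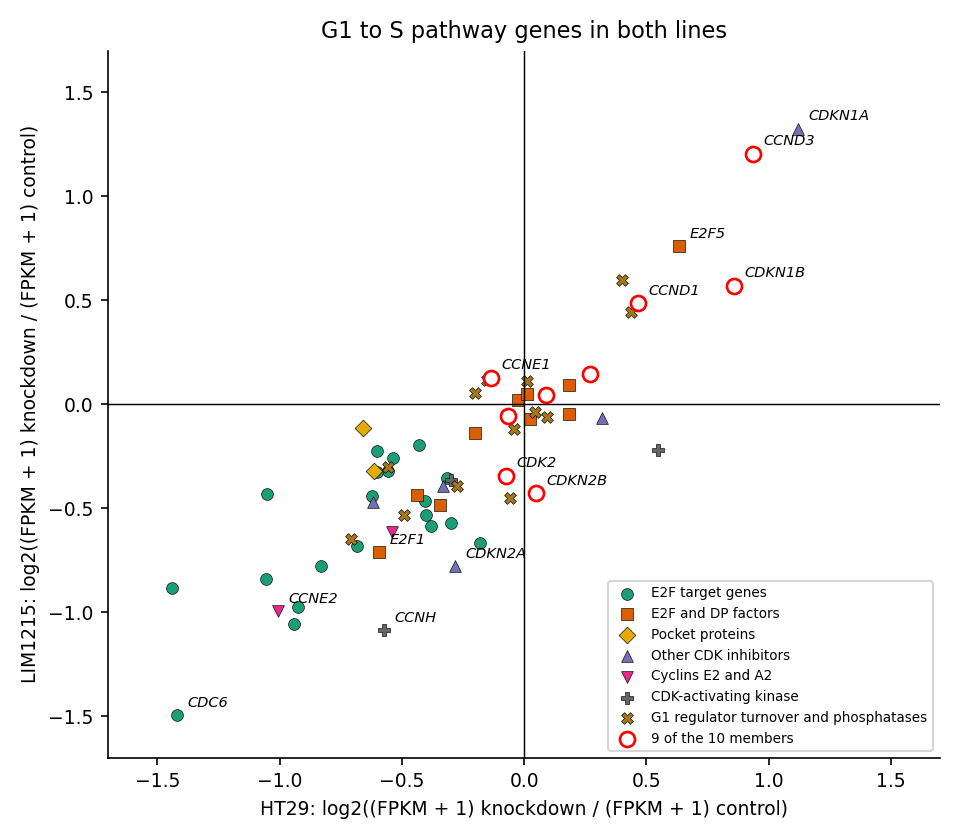
Log2 ratios of FPKM plus 1, knockdown over control, in HT29 (x axis) and LIM1215 (y axis) for 55 pathway genes by role (filled) and for 9 of the 10 genes of the set (open red circles, CCND2 left out); each point is 1 gene. All 20 E2F target genes lie in the lower left, under 0 on both axes, and CCND1, CCND3 and CDKN1B lie in the upper right with CDKN1A and E2F5.

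By the rule for likeness of pattern, the genes nearest to CCND3 were sought among 12288 protein-coding genes, as the distance of log2(FPKM + 1) less its mean over the 4 libraries. RFK, riboflavin kinase, was nearest (distance 0.13, log2 ratios 1.02 and 1.27), followed by HSF4, a heat shock factor (0.16, with FPKM of 17.9 and 30.6 in HT29 and 13.9 and 35.5 in LIM1215), and SLC19A1, the reduced folate carrier (0.23, with 0.96 and 0.87). With 4 libraries, such a likeness is a description only.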

How the data were processed

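Sequencing libraries came from a TruSeq Stranded mRNA kit on total RNA, per the labels' protocols. Per the submitters' processing notes, the tools were HISAT2 2.1.0, SAMtools 1.20, Cufflinks 2.2.1 and Cuffdiff, with build GRCh38. The authors deposited FPKM per Ensembl gene, 1 table per library. The annotation, strand setting and treatment of shared fragments are not given in the sources used here. FPKM is relative to each library's total.

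Symbols and positions came from GENCODE release 44 on GRCh38, for 56550 of 60658 identifiers. Log2 ratios used a pseudocount of 1 and genes with a mean FPKM of at least 1. Fragments per FPKM were estimated from the steps of values under 0.5 in genes with 1 transcript of at least 500 bases: 79.1% to 80.8% lay within 0.03 of a whole number. Fragments per gene then used the canonical transcript length, so they are estimates. The fit was tested on simulated data. Python 3.11.15, numpy 2.4.6, pandas 2.3.3 and scipy 1.17.1 were used, and limma 3.58.1 (R 4.3.3, mean trend) for the fit across lines, which pairs the libraries of each line and shares variance across genes.

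The members, lists and thresholds were chosen with earlier results of these data known. Named genes were the members, TMEM161A, overlapping neighbours, pathway genes past 1.5-fold the same way in both lines, a fixed group of 6 (CDKN1A, CDKN2A, CCNE2, E2F1, RBL1 and SKP2), and the 3 genes most like a member past 1.5-fold in both lines. Of the genes this rule names, 1 is not reported here. Other pathway genes named were chosen after their values were seen, as were the motifs. Alternatives were the pseudocount, the filter, 4 scalings, the fold mark and protein-coding genes alone. Overlapping genes are uncertain.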

Additional observations from a re-analysis of the deposited data

Results flagged for a closer look

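CCNE1 went opposite ways in the lines, with log2 ratios of −0.14 (HT29) and 0.13 (LIM1215), which are 0.26 apart (LIM1215 minus HT29). CDKN2B did too, with 0.05 and −0.43, a difference of −0.48. Each line had 1 library per siRNA, so neither difference was tested. The counting intervals of CCNE1 included no change in both lines, and that of CDKN2B in HT29, whose sign turned under 2 scalings.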

How the results depend on the processing

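With 1 library per group, no replicate could be left out. The paired analysis, limma with line as a block, called 127 genes higher and 161 lower. It called 14 and 36 with a pseudocount of 0.1, and 91 and 116 with 5. Of 432 other values recomputed under the alternatives, 345 stayed within their counting error or, for counts, within 1.5 times, and 6 changed sign. Those 6 were CDK6 in HT29 (−0.0175, common sum without mitochondrial genes), CDKN2B in HT29 (−0.0276 with a common sum, −0.0575 without mitochondrial genes), CCNE1 between controls (−0.0078, common sum) and the CDK6 difference between lines (0.0253 and 0.0287 under these 2). CCND1 in HT29 was 0.43 centred, 0.39 with a common sum, 0.35 without mitochondrial genes and 0.43 with upper quartile scaling, and in LIM1215 0.46 centred and 0.45 without mitochondrial genes. A pseudocount of 5 gave CCND3 0.71 and 0.91 in HT29 and LIM1215, the pocket proteins −0.41 in HT29, and cyclins E2 and A2 −0.53 and −0.57. In HT29, the E2F targets were −0.68 with a common sum and −0.72 without mitochondrial genes, and the turnover list −0.17 under the latter. Genes past 2-fold, higher and lower, numbered 274 and 288 for HT29, with 249 and 263 for LIM1215. They were 570 and 558, and 476 and 508, with a pseudocount of 0.1. With 5 they were 87 and 94, and 68 and 88. A mean FPKM of at least 5 gave 128 and 144, and 89 and 113, and protein-coding genes alone 118 and 155, and 93 and 109. At 1.5-fold there were 1165 and 1023, and 982 and 915. Without a filter, 395 were higher in LIM1215, and without mitochondrial genes in the sum 441 were lower in HT29. The number of members past 1.5-fold was 2 higher and 0 lower in each line under every pseudocount and scaling tried. Depth limits CCND2 in HT29, where at most 2 fragments were seen.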
